A study of Mus musculus with 9 samples.

Results

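Neutrophils sorted from pancreatic tumors were compared with neutrophils sorted from the bone marrow of tumor-bearing mice. These are the ends of the path that the cells travel from where they are made to where they infiltrate. The authors describe the compartments as coming from the same mouse, and the cells were pooled over mice. A gene entered the comparison when its log2 FPKM (fragments scaled to gene length and library size) exceeded 0 in 3 or more of the 6 libraries, which 7065 of the 46517 listed genes did. The animals were C57BL/6 mice carrying an orthotopic transplant (OT) of a pancreatic ductal adenocarcinoma (PDAC) cell line, which had been injected into the pancreas and was derived from KPC mice, a strain engineered to develop pancreatic cancer. Bone marrow, blood and tumor were taken on day 27 after transplantation, and each compartment gave 3 libraries, each from a pool of OT mice from a separate experiment. All mice therefore carried a tumor, the tumor came from a single cell line, and neither the sex nor the age of the pooled mice was given for these libraries. Live CD45+ cells without CD3, B220 or NK1.1 and positive for Ly6G and Ly6C were sorted in every compartment, and only for bone marrow do the labels speak of high Ly6G. This gate removes epithelial cells and most lymphocytes and does not name a marker against monocytes, eosinophils or basophils. Blood libraries are given where they help to place a gene or list beside the other compartments.

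Neutrophils are made in the bone marrow through a fixed series of stages. Promyelocytes transcribe the genes of the azurophil granules, myelocytes those of the specific granules, and later stages those of the gelatinase granules, so that a mature cell carries granule proteins whose messages are no longer made. In tissue, neutrophils release chemokines and cytokines, and in poorly oxygenated tissue the hypoxia-inducible factor HIF-1 drives genes for glucose uptake, glycolysis and survival.

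Between 7108871 and 7949367 reads were recovered from the deposited values in the bone marrow libraries, and between 5446499 and 6969557 in the tumor libraries. At least 1 read was found for 15438 to 15941 genes in bone marrow and for 18000 to 18130 in tumor. The 10 genes with the most reads held 17.1% to 18% of a bone marrow library and 6.99% to 7.71% of a tumor library. Pearson correlations over the tested genes were 0.938 to 0.946 among bone marrow libraries, 0.885 to 0.900 among tumor libraries and 0.412 to 0.491 between the compartments. The median standard deviation (SD) of a gene over 3 libraries was 0.19 in bone marrow and 0.31 in tumor on the log2 scale. In bulk libraries like these, fewer cells of a type and less RNA per cell cannot be told apart.

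The compartments differed in most of the genes tested. In limma, at a Benjamini-Hochberg adjusted p under 0.05, 1723 genes (24.4% of those tested) were higher in tumor and 2465 (34.9%) were lower. The median log2 fold change, tumor minus bone marrow, was 1.83 among the genes that were higher, -1.29 among those that were lower and -0.19 over all tested genes. Large increases outnumbered large decreases. A log2 fold change of at least 4 was reached by 424 of the higher genes (6% of those tested), while 70 of the lower genes (0.991%) fell by as much. An increase of at least 1 was found for 18.4% and of at least 2 for 11.3%, a decrease of at least 1 for 23% and of at least 2 for 8.87%. The remaining 2877 genes (40.7%) were not called. All tumor libraries lay above all bone marrow libraries for 27.9% of the genes tested and below them for 39.1%. The compartments did not overlap for 4138 of the 4188 genes called (59.3% of those tested). The filter itself shapes part of these counts. It was passed through the tumor libraries only, with log2 FPKM at or under 0 in every bone marrow library, by 771 genes, 731 of them among the 1723 higher and 387 among the 424 that rose by at least 4. It was passed through bone marrow only by 569 genes, 534 of them among those lower. Such genes could hardly pass without differing. The filter bears less on the 5725 genes over 0 in at least 1 library of each compartment, of which 992 were higher and 1931 lower. Some of these may still have passed mainly through 1 compartment. Counts of list members over 0 in both compartments are to be read beside these numbers. The directions of all genes are relative to the library sizes that the authors scaled. With plain library totals every log2 fold change moved up by about 0.45, and the split became 2520 higher and 1587 lower, or 61.4% higher among the calls in place of 41.1%.

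The cells were first checked against 4 genes that bear on the labels. Bnip3, a HIF target that acts in mitophagy, had log2 FPKM values of 1.42, 1.60 and 1.57 in bone marrow and 5.06, 5.59 and 4.82 in tumor. Arg1, which encodes the arginine-degrading enzyme arginase 1, had 4, 0 and 2 reads in bone marrow and 679, 1076 and 581 reads in tumor. Both genes were higher in all 3 tumor libraries than in any bone marrow library. The log2 fold change of Bnip3 was 3.63 (standard error 0.20, limma adjusted p = 4.64e-06), a 12.3-fold higher level. For Arg1 it was 9.05 (standard error 0.98, limma adjusted p = 0.000129), a size that depends on the constant added to values without reads. Ltf, the gene of the specific granule protein lactoferrin, and Ly6g, the gene of the antigen used in the sort, went the other way. Ltf lay at 10.60, 10.78 and 10.59 in bone marrow and at 7.34, 6.51 and 7.15 in tumor, a fall by 3.66 (standard error 0.23, limma adjusted p = 8.53e-06). Ly6g lay at 7.52, 7.90 and 7.45 in bone marrow and at 4.24, 2.77 and 3.19 in tumor, a fall by 4.22 (standard error 0.34, limma adjusted p = 2.87e-05). The compartments did not overlap for any of the 4 genes, and the exact two-sided permutation test of 3 against 3 gave p = 0.1, the smallest it can give. Ly6g RNA was thus lower in tumor than in bone marrow, although the cells of both had been sorted as Ly6G+. Its mean in tumor, 3.40, was still above the median of all tested genes there, 1.39. Only the bone marrow label names high Ly6G, and the part of the sort in this difference was not tested. Blood lay between bone marrow and tumor for Bnip3 (mean 3.46), Arg1 (mean -0.52) and Ly6g (mean 5.08), whereas Ltf was lower in blood (mean 4.63) than in tumor.

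**Figure D1:**
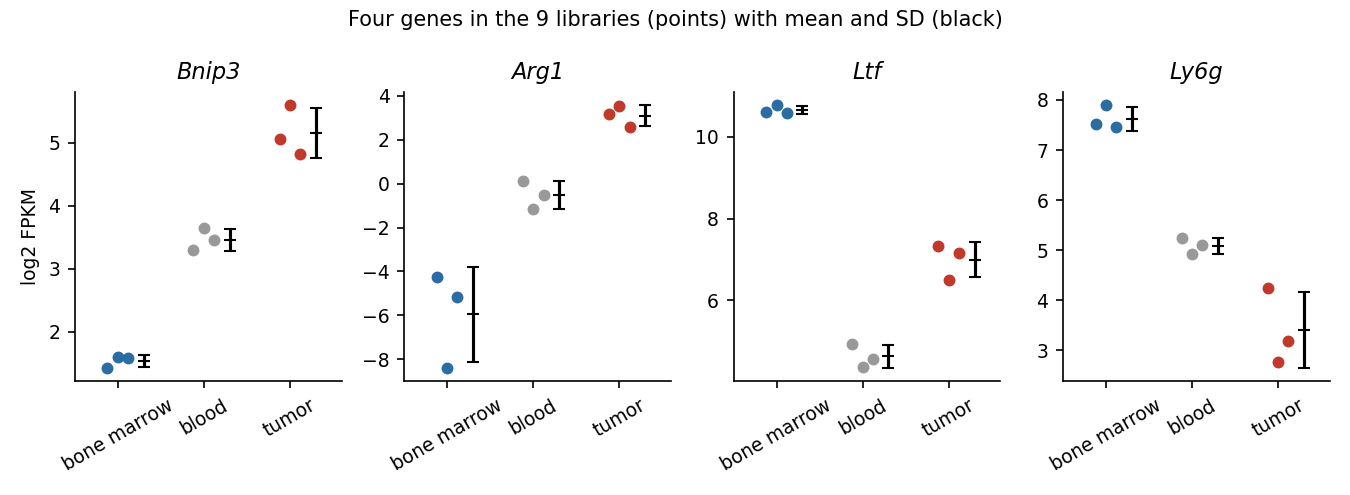
Log2 FPKM of Bnip3, Arg1, Ltf and Ly6g in each of the 9 libraries, 3 per compartment (points), with the mean and SD of the compartment (black). Bnip3 and Arg1 are highest in tumor, Ly6g is lowest in tumor, and Ltf is highest in bone marrow and lowest in blood.

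Genes of the neutrophil granules fell together and by the largest amounts among the functional lists. All 8 azurophil granule genes were lower in tumor, with a median log2 fold change of -5.60. All 14 specific granule genes were lower, with a median of -3.09. Of 10 gelatinase granule and secretory genes, 9 were lower, with a median of -3.11, beside -0.19 for all genes tested. The filter was passed through bone marrow only by 5 of the 8 azurophil genes and by none of the other granule genes. The RNAs of these lists together took 16.8%, 17.9% and 17.7% of the reads in the bone marrow libraries and 2.83%, 2.09% and 2.64% in the tumor libraries. Their share of the RNA was therefore 6.93-fold larger in bone marrow, with no overlap between libraries (exact two-sided permutation test, p = 0.1, the smallest possible).

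Among the azurophil granule genes, cathepsin G, myeloperoxidase and neutrophil elastase showed the largest changes. Mpo, which encodes myeloperoxidase, had 7748, 4928 and 8508 reads in bone marrow and 42, 33 and 43 in tumor (log2 fold change -7.64, standard error 1.55, limma adjusted p = 0.00347). The neutrophil elastase gene Elane had 2306, 1479 and 2089 reads in bone marrow against 10, 19 and 31 in tumor. Cathepsin G RNA (Ctsg) fell from 595, 373 and 677 reads to 4, 0 and 3. Ms4a3, a membrane protein gene of granulocyte progenitors, followed with 408, 279 and 472 reads against 5, 9 and 4. The proteinase 3 gene Prtn3, which had 714, 444 and 668 reads in bone marrow and 11, 34 and 24 in tumor, belongs to the same group. The protease genes and Mpo are hallmarks of promyelocytes, and the RNA of the proteases was low in blood too, where the mean log2 FPKM was between -5.36 (Ctsg) and -1.38 (Prtn3). Ctsc, the protease that activates the serine proteases, changed least in the list, by -0.80 (standard error 0.23, limma adjusted p = 0.0185). That call was lost with plain library totals, with no filter and without bone marrow replicate 3 or tumor replicate 3 (adjusted p from 0.0568 to 0.248).

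Among the specific granule genes, the decrease was 16-fold for Ngp, the most abundant gene of bone marrow and a member of the cathelicidin-related family. Its log2 FPKM was 13.46, 13.69 and 13.48 in bone marrow and 10.10, 8.95 and 9.58 in tumor. Camp, the gene of the antimicrobial peptide cathelicidin, fell from 9.72, 9.73 and 9.75 to 5.93, 4.51 and 5.09, by 4.56 (standard error 0.32, limma adjusted p = 1.38e-05). Lcn2, which encodes the iron-scavenging lipocalin 2, fell 17.0-fold, and the collagenase gene Mmp8 fell 13.3-fold. The RNA of these genes was far from absent in tumor, as Ngp still had 12183 to 22176 reads there. In tumor it was also above blood for Ltf, Camp and Ngp, whose mean log2 FPKM in blood was 4.63, 3.16 and 7.83, a difference between tumor and blood that was not tested here. Lrg1 and Tcn2 changed least in the list, by -1.89 and -1.85. In the gelatinase and secretory list, Lyz2, the lysozyme gene, fell by 3.91 (standard error 0.18, limma adjusted p = 3.10e-06), Retnlg fell by 3.54, and Mmp9, the gelatinase itself, fell by 2.53. Slpi, an inhibitor of neutrophil elastase, lay at 3.56, 3.59 and 3.47 in bone marrow and at 3.34, 3.47 and 2.93 in tumor and did not pass the test.

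The promoters of Ltf and Ngp are shown because these are the named and the most abundant of the genes that fell. Factors of the C/EBP family drive granule genes in myelocytes, and the letters TTGCNNAA, searched on both strands, are the core of their site. The sequences run from 250 bases before to 50 bases after the RefSeq start, on build GRCm38.p6, with matches in capitals. A match is held by 10.8% of all 32851 RefSeq promoters of this length.
Ltf, chr9:111019042-111019341, plus strand: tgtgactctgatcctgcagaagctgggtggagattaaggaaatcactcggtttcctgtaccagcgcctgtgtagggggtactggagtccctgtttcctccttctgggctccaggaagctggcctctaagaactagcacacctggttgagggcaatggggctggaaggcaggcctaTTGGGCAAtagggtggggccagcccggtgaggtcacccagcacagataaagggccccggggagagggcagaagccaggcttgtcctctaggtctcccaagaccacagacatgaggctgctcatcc
Ngp, chr9:110419558-110419857, plus strand: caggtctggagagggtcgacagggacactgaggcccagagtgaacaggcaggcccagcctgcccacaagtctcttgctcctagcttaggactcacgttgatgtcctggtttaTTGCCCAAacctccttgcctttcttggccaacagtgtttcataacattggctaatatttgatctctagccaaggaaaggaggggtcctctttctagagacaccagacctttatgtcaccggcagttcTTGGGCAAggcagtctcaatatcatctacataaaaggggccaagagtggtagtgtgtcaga
The Ltf promoter holds 1 match and the Ngp promoter 2. A match is a description of these letters and does not show that a factor binds there.

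**Figure D2:**
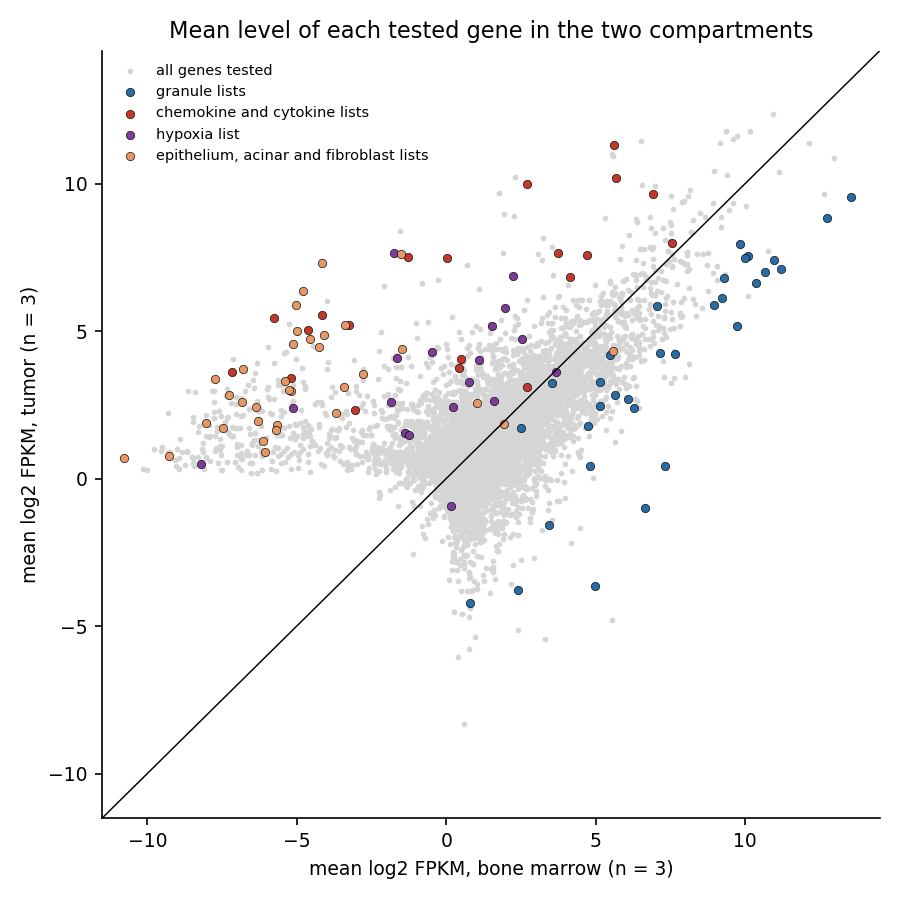
Mean log2 FPKM of the 7065 tested genes in tumor (vertical) against bone marrow (horizontal), 3 libraries each, with the line of equal level. Granule genes (blue) lie below the line, chemokine, cytokine and hypoxia genes (red and purple) lie mostly above it, and markers of epithelium, acinar cells and fibroblasts (orange) lie mostly far to its left.

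Other genes of neutrophil function divided. Of 12 genes of neutrophil identity, 8 were lower in tumor, 1 was higher and 3 were not called, with a median log2 fold change of -1.35. S100a8, which encodes a subunit of calprotectin, fell from 12.76, 12.46 and 12.69 to 9.99, 9.55 and 9.37, a 7.98-fold lower level, and its partner S100a9 fell 8.42-fold. Fpr1, the formyl peptide receptor, fell by 2.43, and Cxcr2, the receptor for the chemokines that call neutrophils out of the marrow, fell by 1.12 (standard error 0.13, limma adjusted p = 0.000207). The receptor genes Csf3r and Fcgr3 stayed at high levels in both compartments. Csf3r, the G-CSF receptor, lay at 7.08, 7.16 and 6.71 in bone marrow and at 7.13, 7.25 and 6.82 in tumor. Trem1, an amplifier of inflammatory signaling, was higher in tumor, by 1.18 (standard error 0.12, limma adjusted p = 9.00e-05). With plain library totals 4 genes of this list were higher, and without tumor replicate 3 this count was 2. All 6 genes of the NADPH oxidase, the enzyme complex of the respiratory burst, were lower in tumor, with a median of -2.11. The catalytic subunit gene Cybb showed the largest change, from 6.31, 6.46 and 6.33 to 3.04, 2.06 and 2.77, and the cytosolic subunit gene Ncf1 the smallest, a fall by 1.85.

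Genes of proliferation and of the granulocyte program were mostly lower as well. Of 24 tested cell cycle genes, 13 were lower and 11 were not called, with a median of -1.02. The kinase gene Aurkb, which acts in chromosome segregation, was at 3.09, 3.18 and 3.27 in bone marrow and at 1.09, 1.08 and 1.04 in tumor, a call (limma adjusted p = 0.0355) that was lost whichever of the 6 libraries was left out. In Mki67, the gene of the proliferation antigen Ki-67, the fall was by 1.70 (standard error 0.23, limma adjusted p = 0.000369). Several DNA replication genes did not pass, among them Pcna (0.11) and Mcm2 (0.44). The count of lower cell cycle genes dropped to 3 with plain library totals, to 6 without bone marrow replicate 1, to 5 without bone marrow replicate 3 and to 5 without tumor replicate 2. Markers of tumor epithelium, whose cells can divide, summed to 2821 to 5073 RPM (the usual reads-per-library unit, at the library sizes scaled by the authors) in the tumor libraries and 90.6 to 103 RPM in bone marrow, and their part in these values was not tested. The 25 cell cycle genes listed summed to 1614 to 2087 RPM in bone marrow, 124 to 149 RPM in blood and 799 to 1097 RPM in tumor. Tumor thus lay below bone marrow but above blood, and the difference between tumor and blood was not tested. Of 11 transcription factors of granulopoiesis, 7 were lower, 1 was higher and 3 were not called, with a median of -2.25. Among the 10 over 0 in both compartments, 6 were lower and 1 was higher. Cebpe, the factor of the myelocyte stage, fell from 6.06, 5.84 and 5.61 to 0.85, 1.66 and 2.37 (log2 fold change -4.21, standard error 0.82, limma adjusted p = 0.00287). Irf8, a factor of the monocyte lineage, fell by 3.17, and Myc was the gene that rose, by 1.97 (standard error 0.53, limma adjusted p = 0.0128).

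Chemokine ligands were the list with the highest median among the functional lists. Of 11 tested ligands, 9 were higher in tumor and 2 were not called, with a median log2 fold change of 7.29. Of the 11, 5 passed the filter through the tumor libraries only, and of the 6 others 4 were higher. Summed over the list, their RNA lay between 891 and 1196 RPM in bone marrow and between 6009 and 11614 RPM in tumor. Cxcl2, a ligand of CXCR2 and the most abundant of them, was at 5.87, 5.63 and 5.31 in bone marrow and at 11.37, 11.70 and 10.83 in tumor, a 52.0-fold higher level (log2 fold change 5.70, standard error 0.30, limma adjusted p = 4.48e-06). Ccl3 and Ccl4, which encode macrophage inflammatory proteins, rose by 7.29 and 7.46. Other CXCR2 ligands had almost no reads in bone marrow. Cxcl1 had 0, 0 and 2 reads there and 338, 979 and 260 in tumor. At the library sizes scaled by the authors, its summed reads were 689.6-fold higher in tumor (95% interval 190.6 to 5699, counting error only). Cxcl5 had 0, 0 and 1 reads against 244, 121 and 170. The ligands Ccl6 and Ccl9 were not called, and Ccl6 was already abundant in bone marrow, at 7.64, 7.76 and 7.28 against 8.35, 8.22 and 7.39 in tumor. It passed the test as higher without tumor replicate 3, with plain library totals and with quantile normalization.

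The Cxcl2 promoter is shown for the most abundant ligand that rose. NF-kB drives many chemokine genes through the kappa-B consensus, which was searched on both strands and is marked in capitals, and 4.51% of all promoters in the RefSeq table hold a match.
Cxcl2, chr5:90903649-90903948, plus strand: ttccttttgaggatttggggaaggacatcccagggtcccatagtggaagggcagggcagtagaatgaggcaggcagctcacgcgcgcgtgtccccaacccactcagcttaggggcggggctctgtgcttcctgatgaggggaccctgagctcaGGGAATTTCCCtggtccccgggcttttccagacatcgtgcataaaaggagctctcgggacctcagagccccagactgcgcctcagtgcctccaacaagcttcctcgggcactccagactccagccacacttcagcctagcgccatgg
It holds 2 overlapping matches, which share most of their letters.

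Of 18 cytokines and growth factors listed, 9 passed the filter, 3 of them (Il1a, Il23a and Hbegf) through the tumor libraries only. All 9 were higher in tumor, with a median of 3.90, a count that the filter partly fixes, and so were all 6 that were over 0 in both compartments. The summed RNA of the 18 went from between 1169 and 1733 RPM to between 12528 and 20848 RPM. Il1b, the interleukin-1 beta gene, was at 6.02, 5.72 and 5.26 in bone marrow and at 10.18, 10.57 and 9.81 in tumor, 23.0-fold higher. In blood its mean was already 8.97. Il1a rose from a few reads to 5.84, 5.95 and 4.85, with a log2 fold change of 9.70 (standard error 0.46, limma adjusted p = 3.10e-06). Il23a, a subunit of interleukin 23, had no read in any bone marrow library and 499, 954 and 471 reads in tumor. Taking 3 reads per library as the limit that a count of 0 allows, Il23a was at least 187-fold higher in tumor. Its log2 fold change of 11.19 was the largest of all genes chosen by size outside the marker lists of other cells. That rank depends on the constant added to values without reads, and Cldn2 followed at 11.17. Hbegf, a ligand of the epidermal growth factor receptor, had 0, 0 and 2 reads in bone marrow and 730, 1203 and 966 in tumor. Tnf rose by 3.90, the interleukin-1 antagonist Il1rn by 2.86 and oncostatin M (Osm) by 2.73, from levels that were clearly measurable in bone marrow. The 9 other genes listed, among them Il6, Il10 and Csf2, did not pass the filter on low values.

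Receptors for migration went both ways. Of 18 tested, 6 were higher, 10 were lower and 2 were not called, with a median of -0.90. Among the 15 over 0 in both compartments, 4 were higher and 9 were lower. The chemokine-binding receptor Ccrl2 stood out, with 2.43, 2.19 and 2.33 in bone marrow and 10.30, 10.50 and 9.85 in tumor, a 239-fold higher level (standard error of the log2 fold change 0.24, limma adjusted p = 1.70e-06). Icam1, an adhesion molecule, rose by 4.74 and the complement receptor gene C3ar1 by 5.12. Ccr2, the receptor of inflammatory monocytes, fell by 4.25, the leukotriene receptor gene Ltb4r1 by 2.16 and the integrin gene Itgb2 by 2.24. Cxcr4, the receptor that retains neutrophils in the marrow, lay at 2.91, 3.36 and 3.16 in bone marrow and at 3.20, 2.79 and 2.64 in tumor, which overlap.

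Among 10 tested genes of arginine metabolism, checkpoints and prostaglandins, 5 were higher, 2 were lower and 3 were not called, with a median of 0.39. The filter was passed through the tumor libraries only by 3 of them, and of the 7 over 0 in both compartments 2 were higher and 2 were lower. Over all 5725 tested genes over 0 in both compartments, 992 were higher and 1931 were lower, so so few list members allow no reading of a direction. Beside Arg1, the genes that rose by more than the rest were Ptgs2, Cd274 and Nos2. Ptgs2, the inducible cyclooxygenase, had 239, 212 and 154 reads in bone marrow and 26134, 45088 and 22435 in tumor, 132-fold higher (limma adjusted p = 3.10e-06). Cd274, which encodes PD-L1, was at -0.63, -1.11 and -1.26 against 5.54, 5.63 and 4.65, 77.3-fold higher. Nos2, the inducible nitric oxide synthase, rose from 12, 8 and 10 reads to 420, 672 and 468. Arg2, the arginase of mitochondria, was not called (log2 fold change 0.25), although it passed as higher without tumor replicate 3, with plain library totals and with quantile normalization. The gene of VISTA, a checkpoint receptor listed here as 4632428N05Rik, fell by 1.99 (standard error 0.11, limma adjusted p = 5.44e-06), and Lgals9 fell by 0.62, a call that was lost with plain library totals.

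Targets of hypoxia signaling outside glycolysis were mostly higher in tumor. Of 18 tested, 16 were higher, 1 was lower and 1 was not called, with a median of 3.28. The filter was passed through the tumor libraries only by 8 of them, and of the 9 over 0 in both compartments 8 were higher. The summed RNA of the 25 listed went from between 822.5 and 914 RPM to between 3739 and 6210 RPM. Hilpda, a lipid droplet protein and HIF target, had 5, 10 and 3 reads in bone marrow and 4778, 6214 and 2631 in tumor, with a log2 fold change of 9.39 (standard error 1.02, limma adjusted p = 0.000134). Bhlhe40, a transcription factor induced by hypoxia, rose by 4.63, the oxygen sensor gene Egln3 by 4.78 and the cytokine gene Mif by 3.79. Mxi1, an antagonist of Myc, was the member that fell, by 1.10 (standard error 0.19, limma adjusted p = 0.00164). Bnip3l, the relative of Bnip3, lay at 3.62, 3.74 and 3.69 in bone marrow and at 3.60, 4.01 and 3.25 in tumor. Bnip3 and Bnip3l, which both act in mitophagy, thus differed in their response in the same libraries. Car9, a carbonic anhydrase that epithelial cells also express, rose by 5.73. The 7 listed genes that did not pass the filter include Vegfa.

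The Bnip3 promoter is shown as that of the hypoxia target named at the outset. The letters ACGTG, the core of the hypoxia response element, were searched on both strands, and 19.6% of all promoters in the RefSeq table hold them.
Bnip3, chr7:138909457-138909756, minus strand: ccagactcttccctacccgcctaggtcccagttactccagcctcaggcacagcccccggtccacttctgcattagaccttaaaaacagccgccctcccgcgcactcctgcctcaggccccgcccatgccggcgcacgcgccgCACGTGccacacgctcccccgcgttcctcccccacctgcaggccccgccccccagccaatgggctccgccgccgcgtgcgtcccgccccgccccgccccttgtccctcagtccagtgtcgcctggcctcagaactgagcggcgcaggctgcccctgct
The capitals mark 2 overlapping matches, one on each strand. Motif shares of genes that rose and fell are not compared here, because only 64.5% of the genes tested had a promoter in the table.

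Glycolysis genes changed in both directions. Of 20 tested genes, 9 were higher, 6 were lower and 5 were not called, with a median of 0.28, and the summed RNA, between 19521 and 22035 RPM in bone marrow and between 17457 and 23595 RPM in tumor, overlapped. With plain library totals the sums did not overlap, at 18326 to 19731 RPM in bone marrow and 22486 to 27263 RPM in tumor. At the entry of glucose, the transporter gene Slc2a1, which encodes GLUT1, rose from 2.19, 1.98 and 1.69 to 4.88, 5.27 and 4.65 (log2 fold change 2.98, standard error 0.18, limma adjusted p = 7.20e-06). Slc2a3, which encodes GLUT3, fell from 4.61, 4.74 and 4.48 to 2.62, 3.10 and 2.67. Among the hexokinases, Hk2 rose by 1.20, while Hk3, the most abundant of them in bone marrow, fell by 2.01 and Hk1 fell by 0.71. The phosphofructokinase genes Pfkl and Pfkp rose by 2.77 and 2.56, and Pfkfb3 rose by 1.44 where Pfkfb4 fell by 1.85. Further down the pathway, Tpi1 rose by 2.12 and Ldha, the lactate dehydrogenase, by 0.93, whereas Aldoa (0.17), Pgk1 (0.09) and Eno1 (0.07) were not called. The isomerase gene Gpi1 was lower in tumor, by 1.09 to 1.71 over the 19 alternative settings, and kept its call in all of them. Aldoc showed the largest change, 3.83 (standard error 0.80). Members of the glucose transporter, hexokinase and Pfkfb families therefore moved in opposite directions, while the phosphofructokinase genes Pfkl and Pfkp both rose. With plain library totals, 13 genes were higher and 4 were lower, and Hk1 no longer passed.

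Immediate early genes, which respond within minutes to stimulation and to tissue handling, were mostly higher. Of 18 tested, 15 were higher, none was lower and 3 were not called, with a median of 2.34. Of the 13 over 0 in both compartments, 10 were higher. Egr1 was at 1.65, 2.73 and 2.46 in bone marrow and at 8.88, 9.17 and 8.68 in tumor, a log2 fold change of 6.63 (standard error 0.31, limma adjusted p = 3.10e-06). Ier3 and Junb were among the 10 most abundant genes that rose by at least 2, with 11.60, 11.84 and 10.93 for Ier3 in tumor. Nr4a1 rose by 5.75 and Egr2 by 9.07, while Fos, already at 8.15, 8.34 and 8.02 in bone marrow, rose by 1.60. All 10 heat shock genes were higher, with a median of 2.19, and 3 of them passed the filter through the tumor libraries only. The count was 8 without bone marrow replicate 1 or tumor replicate 1 and 7 with no filter, and Hsp90ab1 (log2 fold change 0.42, limma adjusted p = 0.0413) lost its call in 9 of 19 alternatives. Hspa1a rose by 6.99, although it shares most of its sequence with Hspa1b, so reads of the pair cannot be assigned with certainty. Tissue preparation went with the compartment, so the effect of handling and that of the compartment cannot be told apart.

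Of 15 NF-kB subunit and feedback genes, 10 were higher and 5 were not called, with a median of 1.18. Both compartments were over 0 for 13 of them, and 8 of these were higher. The largest changes were those of Tnfaip3, Icam1 and Traf1. Tnfaip3, which encodes A20, rose from 0.85, 1.12 and 1.35 to 6.11, 7.02 and 6.16 (log2 fold change 5.32, standard error 0.39, limma adjusted p = 1.75e-05), and the inhibitor genes Nfkbiz and Nfkbia rose by 3.36 and 2.93, whereas Nfkbib, Tnip1 and Bcl3 were not called. Among the subunits, Relb, Nfkb2 and Rel rose by 1.37, 1.18 and 0.89, and Rela, at 4.18, 4.22 and 4.02 in bone marrow and 3.35, 4.22 and 4.06 in tumor, was not called. In the unfolded protein and integrated stress list, 7 of 12 genes were higher, none was lower, and the median was 1.26. Ppp1r15a, the phosphatase subunit that ends the stress response, rose by 4.91 and Xbp1 by 1.99.

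Of 17 genes of lipid, iron and lysosome biology, 12 were higher, 2 were lower and 3 were not called, with a median of 1.56. Among the 15 over 0 in both compartments, 10 were higher and 2 were lower. Fth1, the ferritin heavy chain and one of the most abundant RNAs in tumor, was at 9.46, 9.46 and 9.18 in bone marrow and at 12.07, 12.06 and 11.25 in tumor. The iron exporter gene Slc40a1 fell by 1.80 and Lgals3 by 1.21. Atp6v0d2, a subunit of the vacuolar proton pump, rose by 8.74, the largest change of the list (standard error 1.43, limma adjusted p = 0.00116). Spp1, which encodes osteopontin and is made by tumor epithelium and macrophages too, rose from 2.31, 1.62 and 1.36 to 9.74, 9.35 and 9.97. Of 12 scavenger and pattern receptor genes, 10 were higher and 2 were not called, with a median of 1.17. Both compartments were over 0 for 11 of them, and 9 of these were higher. Cd14, the co-receptor for endotoxin, was at 5.37, 5.77 and 5.60 against 10.79, 11.31 and 10.73, 41.2-fold higher, and Siglecf, a sialic acid receptor best known from eosinophils, rose by 2.59. Tlr2 was not called (log2 fold change 0.13). Of 15 interferon-stimulated genes, 9 were higher, 2 were lower and 4 were not called, with a median of 1.78. Among the 14 over 0 in both compartments, 8 were higher and 2 were lower. The 18 interferon-stimulated genes listed summed to 1561 to 1993 RPM in bone marrow, 5144 to 5701 RPM in blood and 2194 to 3204 RPM in tumor. Their level was thus highest in blood, a difference from tumor that was not tested. Gbp2 rose by 2.95, and Ifitm3 and Oas3 fell by 1.81 and 1.48. Of 14 genes of apoptosis and survival, 8 were higher, 2 were lower and 4 were not called, with a median of 0.89. The filter was passed through tumor only by 3 of them and through bone marrow only by 1, and of the 10 others 5 were higher and 2 were lower. The survival gene Bcl2l1 rose by 2.48 and the pro-death genes Pmaip1 and Bcl2l11 by 2.86 and 2.29, while Bid fell by 1.49. Bcl2a1b and Bcl2a1d, near-identical copies between which reads can be split, had the largest values of the list, 6.90 and 6.98.

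**Figure D3:**
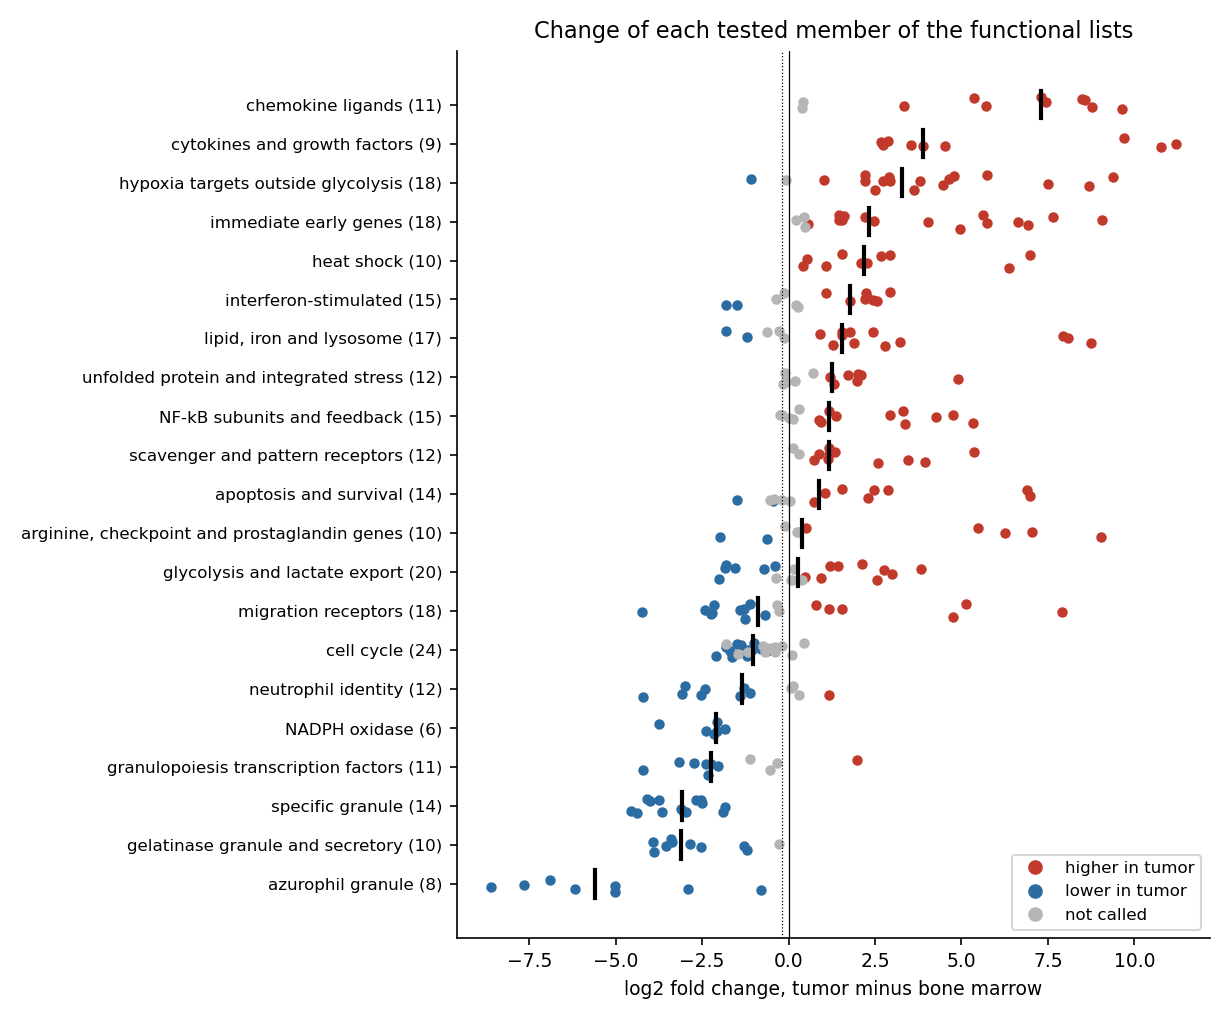
Log2 fold change, tumor minus bone marrow, of each tested member (points) of the 21 functional lists, with the number tested in brackets, the median of the list (black bar) and the median of all tested genes (dotted line). Granule lists lie at the bottom with medians down to -5.60, chemokines at the top with 7.29, and glycolysis holds genes on both sides.

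The most abundant genes that changed by at least 4-fold show how far the bulk of the RNA was exchanged. In bone marrow they were Ngp, Actb, Lyz2, S100a8, Lcn2, Retnlg, S100a9, Ltf, Mmp8 and Ifitm6, which are granule, calprotectin and antimicrobial genes apart from the cytoskeletal gene Actb and the interferon-family gene Ifitm6. Actb itself fell from 13.09, 13.02 and 12.80 to 11.07, 10.81 and 10.69. In tumor they were Fth1, Ier3, Junb, Cxcl2, Hcar2, Cd14, Ccrl2, Il1b, Ccl3 and G0s2. Hcar2, the receptor for niacin and ketone bodies, rose from 5.66, 5.82 and 5.19 to 10.84, 11.46 and 10.73, and G0s2, an inhibitor of triglyceride breakdown, rose 10.4-fold. Of the genes whose 95% interval of the log2 fold change lay within 0.5 of 0, 358 in all, the 10 most abundant were Aldoa, Ddx5, Eno1, Hist1h1c, Ctsd, Csf3r, Atp5b, Dgat1, Hnrnpk and Hdc. Hnrnpk, an RNA-binding protein, was at 6.14, 6.09 and 6.15 in bone marrow and at 6.06, 6.09 and 6.06 in tumor. This set depends on the scaling, since with plain library totals Aldoa, Ddx5, Eno1, Csf3r and Atp5b passed the test as higher, and Ctsd, Dgat1, Hnrnpk and Hdc turned from slightly lower to higher in tumor.

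The tumor libraries also held RNA of cells that the gate should not contain. Of 14 tested genes of tumor epithelium, 13 were higher in tumor and 1 was lower, with a median log2 fold change of 9.14, or 8.90 with genes at 0 reads set to their lower bound. The 13 higher genes, and all 13 of the acinar list, passed the filter through the tumor libraries only, so the summed levels carry the comparison. Summed over the 15 genes listed, they took 90.6 to 103 RPM in bone marrow, 175 to 351 in blood and 3492, 2821 and 5073 RPM in tumor replicates 1, 2 and 3. Krt8, a keratin of simple epithelia, had 9, 0 and 10 reads in bone marrow and 6831, 6601 and 14591 in tumor. All 13 genes of acinar cells, the enzyme-secreting cells of the normal pancreas, were higher in tumor. Their sum was 6.74, 1.66 and 6.79 RPM in bone marrow and 1125, 785 and 2880 RPM in tumor, and the lipase gene Pnlip had 1194, 1109 and 5601 reads there. Of 7 tested fibroblast genes 6 were higher, 5 of them over the filter in tumor only, among them the collagen genes Col1a1 (by 5.88) and Col3a1 (by 11.11), and the sum of the 12 listed was 171 to 216 RPM in bone marrow and 1333 to 1553 RPM in tumor. As shares of all reads, the epithelial list took 0.326% to 0.660% of a tumor library, the acinar list 0.0907% to 0.375% and the fibroblast list 0.162% to 0.202%, which covers the listed genes only. The exact two-sided permutation test gave p = 0.1 for each of these sums, the smallest it can give.

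Macrophage markers did not rise in the same way. Of 7 tested, 2 (Apoe and Cd68) were higher, 1 (Csf1r) was lower and 4 were not called, and the 13 listed took 519 to 560 RPM in bone marrow and 676, 732 and 490 RPM in tumor, which overlap. With plain library totals the tumor sums, between 638 and 846 RPM, lay above those of bone marrow, between 469 and 487 RPM. Csf1r, the receptor that defines the lineage, fell by 0.60, a call lost with plain library totals, and C1qa had 19 to 29 reads in bone marrow and 30 to 33 in tumor. The Cd68 call (limma adjusted p = 0.0233) was lost without bone marrow replicate 1 or 2 or tumor replicate 1 or 2. None of the 10 T and NK cell genes and none of the 8 endothelial genes passed the filter, with sums of 8.32 to 10.1 RPM for T and NK genes in tumor and 83.9 to 121 RPM for endothelial genes, beside 15.4 to 23.3 RPM in bone marrow. Of 3 tested class II genes, 2 were higher, and both calls were lost without bone marrow replicate 2 or 3 or tumor replicate 1 or 2.

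Markers of other blood cells were higher in the bone marrow libraries. Prss34, a protease of basophils, had 675, 403 and 518 reads in bone marrow and 1, 0 and 0 in tumor, and it had the largest decrease of all genes tested, a log2 fold change of -10.34. Epx and Prg2, granule genes of eosinophils, had 78 to 141 and 138 to 326 reads in bone marrow, while Epx had none in tumor and was at least 43.1-fold lower. Of the 5 tested genes of eosinophils, basophils and mast cells, 4 were lower and 1, Il5ra, was higher (log2 fold change 7.81, standard error 1.79, limma adjusted p = 0.00635). The 4 passed the filter through bone marrow only and Il5ra through tumor only, so the filter left none of these directions free. The summed level of the 9 genes listed carries the comparison. Its mean was 163.6 RPM in bone marrow and 50.6 RPM in tumor, without overlap between libraries. Ly6c2, the gene of the monocyte antigen Ly6C, fell from 8.05, 8.25 and 8.02 to 4.74, 3.53 and 3.39, and the 6 monocyte genes summed to 1462 to 1639 RPM in bone marrow and 424 to 499 in tumor. Ly6C is part of the gate and is also made by immature neutrophils. All 3 tested B cell genes were lower in tumor, although 2 of them passed the filter through bone marrow only. The 9 B cell genes listed summed to 245 to 366 RPM in bone marrow and 73.4 to 104 RPM in tumor. Globin genes were not called but varied among the tumor libraries, where the erythroid list took 10.6, 134 and 23.9 RPM, and without tumor replicate 2 all 4 tested erythroid genes were lower. The part of these cells in the lower level of granule and progenitor genes was not tested.

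**Figure D4:**
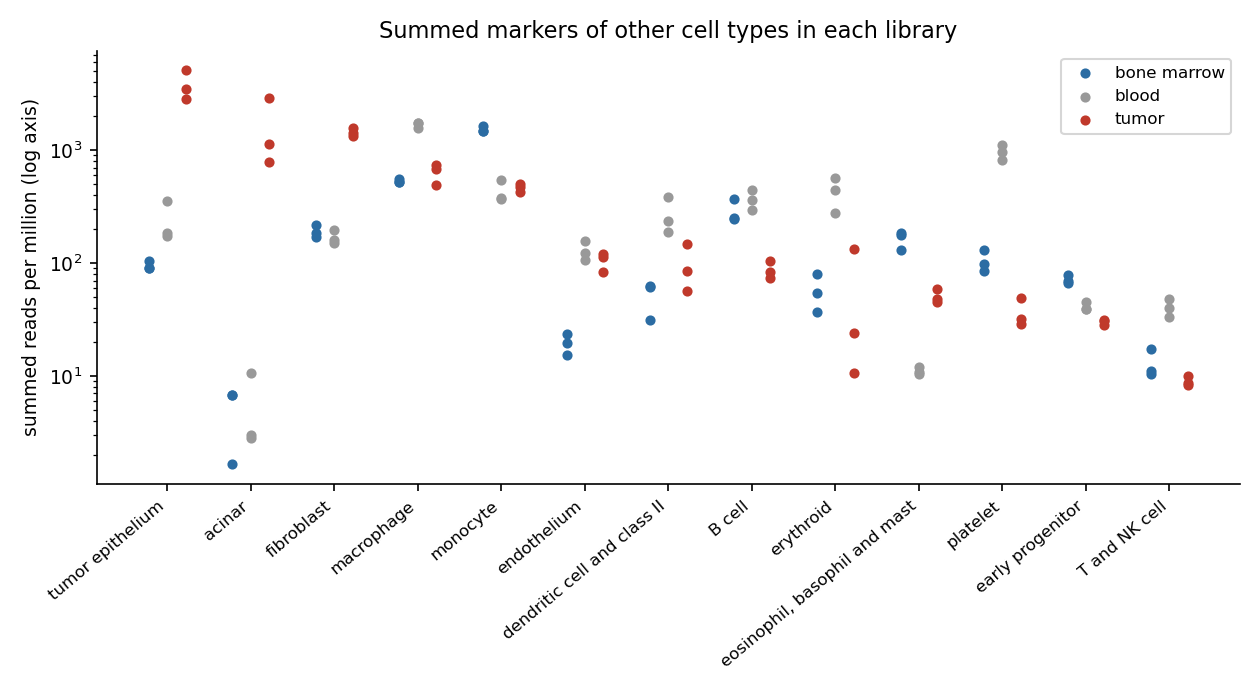
Summed RPM (log axis) of marker lists of other cell types in each of the 9 libraries, colored by compartment. Epithelial, acinar and fibroblast sums are higher in all 3 tumor libraries than in any other library, while monocyte and eosinophil, basophil and mast cell sums are highest in bone marrow.

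The genes with the largest log2 fold changes outside the marker lists were Il23a, Cldn2, Hbegf, Elf3, Krt20, Bok, Anxa8, Ctgf, Gkn1 and Clu. Their order depends on the constant added to values without reads. Cldn2 is a tight junction claudin, Elf3 an epithelial transcription factor, Krt20 a keratin of intestinal epithelium and Gkn1 a gene of gastric mucosa. Elf3 had 2, 0 and 1 reads in bone marrow and 1060, 1058 and 2225 in tumor. At the library sizes scaled by the authors, the summed reads were 1266-fold higher in tumor (95% interval 433 to 6141, counting error only). Krt20 had 0, 1 and 3 reads against 1186, 1167 and 2684. Both were highest in tumor replicate 3, as were Cldn2, Bok, Anxa8, Ctgf and Clu, whereas Il23a and Hbegf were highest in tumor replicate 2 and Gkn1 in tumor replicate 1. Clu, which encodes the chaperone clusterin, was the most abundant of them, at 8.39, 7.91 and 8.90 in tumor.

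The 3 tumor libraries differed among themselves in the order of their lists. Tumor replicate 3 held the highest level for 13 of 13 acinar genes and 11 of 14 epithelial genes, and tumor replicate 2 the lowest for 13 and 12 of them. Several other lists had the opposite order. Tumor replicate 3 was lowest for 9 of 11 chemokine ligands, 8 of 9 cytokines and growth factors, 12 of 18 hypoxia targets, 15 of 15 interferon-stimulated genes and 12 of 12 scavenger and pattern receptor genes. Tumor replicate 2 was highest for 9 of 9 cytokines and growth factors, 15 of 18 hypoxia targets, 17 of 20 glycolysis genes and 16 of 18 immediate early genes. The order was not particular to lists of the neutrophil response. The summed macrophage, endothelial and B cell markers were also highest in tumor replicate 2 (1.16, 1.14 and 1.20 times the mean of the 3) and lowest in replicate 3. Cell cycle genes went the other way, highest in tumor replicate 3 for 15 of 24, as did granulopoiesis transcription factors for 8 of 11. Over all genes tested, tumor replicate 3 was highest for 32.0% and lowest for 39.3%. The shares for tumor replicate 2 were 37.3% and 31.0%. Among the 424 genes that rose by at least 4, tumor replicate 3 was highest for 60.6% and tumor replicate 2 lowest for 56.4%. For the lists of chemokines, cytokines, hypoxia and immediate early genes, the summed level in tumor was lowest in tumor replicate 3. This library also had the most epithelial and acinar RNA. Among the functional lists, its sums were above the mean of the 3 for granulopoiesis factors (1.28), cell cycle (1.14), specific granule (1.05) and heat shock genes (1.01). Without tumor replicate 3, the counts of higher genes were 10 of 11 for chemokines, 9 of 9 for cytokines, 16 of 18 for hypoxia targets and 15 of 18 for immediate early genes. With 3 libraries these orders are a description, and the part of epithelial RNA in each gene was not tested.

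**Figure D5:**
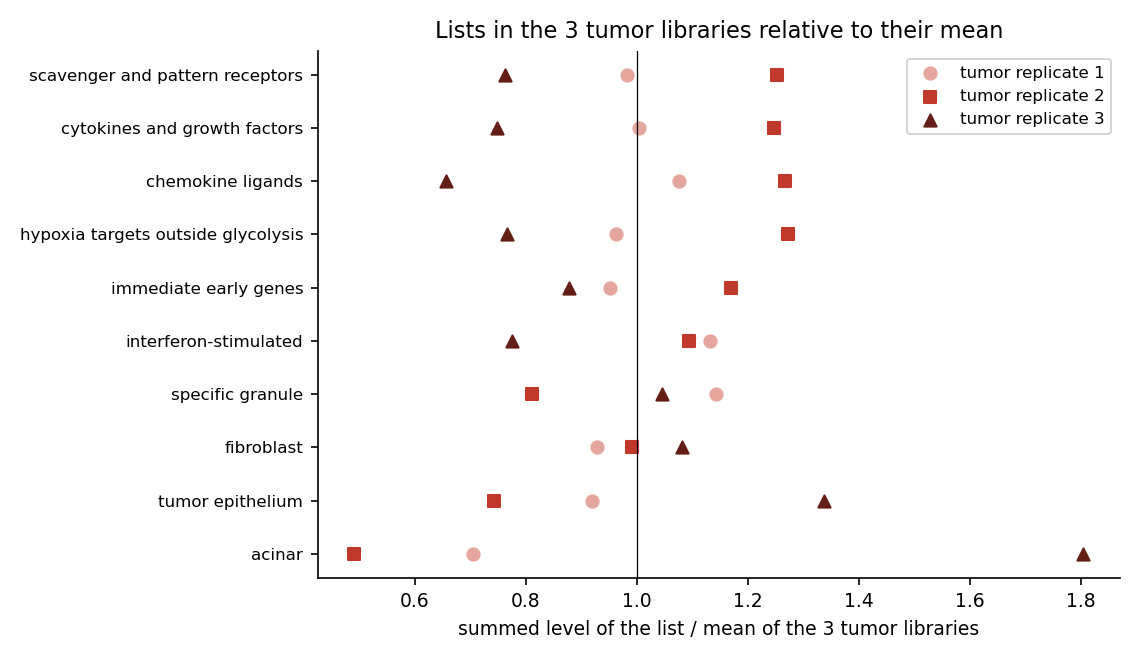
Summed level of each list in a tumor library divided by the mean of the 3 tumor libraries (1 marks the mean). Acinar and epithelial sums are highest in replicate 3 (1.80 and 1.34 times the mean) and lowest in replicate 2, while chemokine and cytokine sums are lowest in replicate 3 (0.656 and 0.749 times the mean).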

How the data were processed

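The 9 libraries, 3 each from bone marrow, blood and tumor, were prepared with SMARTSeq v2, and reads were mapped with STAR 2.5.2b to GRCm38 and counted with featureCounts 1.5.0 on GENCODE M7 genes (edgeR 3.8.6 is also named in the submitters' processing notes). The deposited log2 FPKM values already held a small constant, a scaled library size and, for most genes, the genomic span as length, so a gene with long introns has a low value. Library sizes had been scaled by factors of 0.901 ± 0.046 in bone marrow and 1.23 ± 0.074 in tumor (SD, n = 3 each). The size of the smallest steps gave back whole reads. SMARTSeq v2 reads carry no molecular identifiers, so intervals cover counting error only.

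The values of all 9 libraries were fitted with limma 3.58.1 (lmFit, eBayes with an intensity trend) in R 4.3.3, with a coefficient per compartment. Of 14077 genes with at least 5 reads in 3 of the 6 libraries, 7443 failed the filter of log2 FPKM over 0, and their median length was 33539 bases against 11701 for those tested. The fit was tested on simulated data. The genes and lists, 21 functional and 13 of other cells, were chosen with earlier results of these data known. Named are the 4 genes of the opening, the 10 largest changes each way (protein-coding, called, not overlapping, mean log2 FPKM over 3, outside the marker lists), the 10 most abundant with a log2 fold change of at least 2 each way, the 10 most abundant with the 95% interval within 0.5 of 0, and from each list the largest changes and members against its direction. Other list members were chosen after their values were seen, and some members are counted in their lists but not reported by name here. Pools came from separate experiments, so p-values measure the spread between pools.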

Additional observations from a re-analysis of the deposited data

How the results depend on the processing

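Among the alternatives, the number of genes higher in tumor, 1723, moved most when limma-voom was run on the reads and genes needed 5 or more of them in some library (5192 higher and 3722 lower of 17714 tested, 58.2% higher among the calls), with no filter (3396) and with a log2 FPKM over 2 as the filter (794 higher and 1393 lower). These alternatives test more or fewer genes. Plain library totals gave 1587 lower genes, and a log2 fold change of at least 1 gave 1623 lower. Without each library in turn, 1502 to 1616 genes were higher and 2134 to 2395 were lower. With the replicate block, 1682 genes were higher and 2442 lower. The authors describe the compartments as coming from the same mouse, but the labels do not say whether a number marks a shared experiment. The main fit ignores any such pairing, and the replicate block takes the numbers as shared. The deviations of same-numbered libraries correlated at -0.011, 0.042 and 0.082, which does not show that they are paired, and pairing was not assumed. The log2 fold changes of genes near 0 changed sign with plain library totals, to 0.31 for Ctsd, 0.35 for Dgat1, 0.40 for Hnrnpk, 0.37 for Hdc, 0.0608 for Mcm4, 0.38 for Bnip3l and 0.0673 for Pkm, and with quantile normalization to 0.30 for Hnrnpk and 0.27 for Hdc. Of the genes named by size, 2410016O06Rik, with 0, 16 and 73 reads in tumor, lost its call in 8 of 19 alternatives (adjusted p up to 0.229). In the 150 bases nearest the start site, the shares of all promoters were 11.5% for ACGTG, 3.86% for TGANTCA, 4.79% for TTGCNNAA, 0.454% for TTTCGCGC or TTTGGCGC and 2.13% for the kappa-B consensus. Bnip3, Arg1, Ltf and Ly6g kept their direction and passed the threshold in all alternatives. Depth limits the size of a change where a compartment had 0 to 3 reads.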

Other observations

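The tumor libraries were spread widely in some transcription factor genes. Cebpb, a factor of inflammatory myeloid cells, had log2 FPKM values of -1.53, 2.94 and 7.19 in the 3 tumor libraries against 3.87, 3.51 and 4.57 in bone marrow, and was not called (log2 fold change -1.12, standard error 1.91). Tumor replicate 1 was also the lowest of the 3 for Cebpa, Cebpd, Cebpe, Spi1, Jund and Ier2, with 7.66, 9.48 and 9.44 for Ier2. Of the 11 tested transcription factors of granulopoiesis, tumor replicate 1 was lowest for 7 and tumor replicate 3 highest for 8. Over all genes tested, these shares were 29.7% and 32.0%. What moves with this spread was not tested.

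Fut7, the fucosyltransferase that makes selectin ligands, fell by 4.47 (standard error 0.25, limma adjusted p = 5.69e-06), with 266, 245 and 260 reads in bone marrow and 15, 16 and 9 in tumor. Nkg7, a granule membrane gene best known from cytotoxic lymphocytes, had 119, 86 and 102 reads in bone marrow and 6, 6 and 3 in tumor. Among the genes called higher, 105 had no read in any bone marrow library, and 20 genes called lower had none in any tumor library.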
